A study of Mus musculus with 5 samples.

Results

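The collagen chain genes are the genes that encode the alpha chains of the collagens. They were taken as every gene of the deposited count table whose symbol is Col, a collagen type number, the letter a and a chain number, and 44 of the 24527 genes in the table met this rule. By the type of collagen they build, 11 were fibrillar, 6 were the basement membrane chains of type IV, 3 were network-forming (types VIII and X), 9 were FACITs, the fibril-associated collagens with interrupted triple helices, and 15 belonged to other types, among them types VI, VII, XV, XVII and XVIII.

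Collagens are the most abundant proteins of the extracellular matrix, and their chains wind around each other in triple helices of fixed chain composition. Fibroblasts and smooth muscle cells make the fibrillar collagens that give the stroma its tensile strength. Type IV collagen forms the sheet of the basement membrane beneath the prostate epithelium and around the vessels and muscle cells, and type VI forms beaded filaments next to it. In the prostate, androgen withdrawal is followed by regression of the glands, and tumors often carry a remodelled, collagen-rich stroma.

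The chain genes were compared between prostate cancer (PCa) tissue of castrated and of intact TripleTg mice, 3 castrated and 2 intact samples, by sequencing of total RNA depleted of ribosomal RNA. All 5 samples carried the same alleles: a human HGF transgene (hHGFtg), a human MET transgene at the H11 locus (H11 hMET/+), an exon 3-floxed Ctnnb1 allele that yields stabilized beta-catenin (Ctnnb1 L(Ex3)/+) and PB Cre4, which is driven by the probasin promoter of prostate epithelial cells. Castration was done at 4 months of age and both groups were examined at 8 months, so that the intact mice were controls of the same age and genotype, on a mixed C57BL/6 and C3H SCID background. HGF was produced throughout the body, whereas the MET and beta-catenin alleles depended on a Cre whose promoter responds to androgen. Cre removes a stop cassette from the MET transgene, whose expression the study describes as constitutive after that. The study also reported phosphorylated MET and nuclear beta-catenin in prostate tumors of castrated mice. No group without the transgenes was analysed here. Each sample had its own code in the labels, which do not say that the replicates came from separate mice, so p-values measure the spread between these samples.

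Epithelial transcripts were abundant in every sample. Krt8, a luminal keratin, was at 895, 764 and 1146 CPM (counts of the gene scaled to the library's total) in castrated replicates 1, 2 and 3 and at 1195 and 623 CPM in intact replicates 1 and 2, and all series of values below follow this order. Of the 6 prostate secretory markers in the table, Msmb was at 0 in every sample and Pbsn was at 4.90 CPM or below. Tgm4, a secretory transglutaminase, was at 0.428, 0.0528 and 0.0488 CPM in the castrated and at 0.232 and 1268 CPM in the intact samples. Tgm4 was thus near 0 in 4 of 5 samples, and the 2 intact samples stood apart from each other: their log2 CPM correlated across genes at 0.848, below the 0.922 of castrated replicate 1 with intact replicate 1 (genes are not independent replicates).

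The intact samples also differed from each other in the collagen chains. Of the 41 chain genes that passed the filter of more than 1 CPM in at least 2 samples, 30 were higher in intact replicate 1 than in intact replicate 2, with a median ratio of 2.59, whereas over 14485 tested genes above 0 in both the median ratio was 1.05. Intact replicate 1 was the highest of the 5 samples for 16 of the 41 genes and intact replicate 2 the lowest for 26. Differences of the chains between castrated and intact tissue are therefore also given with an intact sample left out, wherever that turned their direction. The heat map of levels by sample shows this pattern.

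**Figure D1:**
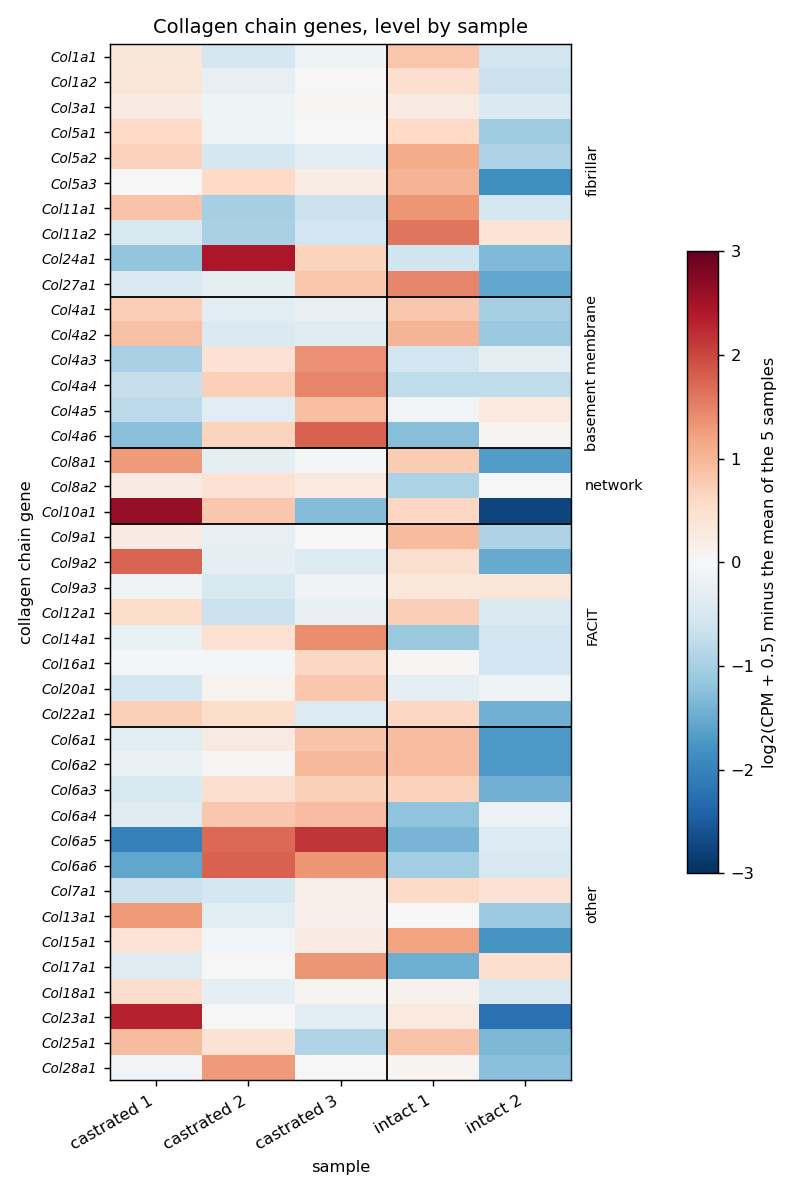
Level of the 41 tested collagen chain genes (rows, by class) in the 5 samples (columns), as log2(CPM + 0.5) minus the mean of the 5 samples (color). Intact replicate 2 is blue in most rows and is the lowest sample for 26 of 41 genes, while intact replicate 1 and castrated replicate 1 share high levels of Col1a1, Col5a2, Col4a1 and Col4a2.

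No collagen chain gene passed the test between castrated and intact tissue. With edgeR's quasi-likelihood test and Benjamini-Hochberg adjustment over 14612 genes, 0 of the 41 chains and 0.0% of all genes were called, which took an adjusted p under 0.05 and more than a 2-fold difference either way. Col11a2 had the smallest adjusted p of the chains, 0.290. When p was left unadjusted, with the same limits, 1 chain was higher in castrated tissue (Col14a1, against 7.66% of all genes) and 1 was lower (Col11a2, against 3.26% of all genes). DESeq2 called 1 chain, Col11a2, among 989 genes (6.77%) at adjusted p under 0.05, and edgeR's likelihood ratio test called 0 chains among 369 genes (2.53%). In 3 chains every castrated sample was above both intact samples (Col4a4, Col8a2 and Col14a1), which is 7.32% of the tested chains beside 17.8% of all genes, and in 3 others every castrated sample was below (Col11a2, Col9a3 and Col7a1), 7.32% beside 15.3%. Both shares of the chains were below those of the table as a whole, and this difference was not tested. Without intact replicate 1 the direction turned, with 75.0% of the chains and 71.5% of all genes apart.

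Fold changes are given as log2 of castrated over intact with their standard error (SE). The SE was derived from edgeR's quasi-likelihood test, as the absolute log2 fold change over the square root of its F statistic. The log2 fold changes were above 0 in 28 of 41 chains (68.3%) against 47.9% of all genes, with a median of 0.29 against -0.028 over all genes. With limma voom 33 chains were above 0, beside 51.4% of all genes, and with limma on log2(TPM + 1) 32 were, beside 60.5%. The balance rested on the intact samples. Without intact replicate 1 the median of the chains was 1.20, with 35 chains higher and 5 lower, and without intact replicate 2 it was -0.27, with 19 higher and 22 lower. Of 40 chains tested in both settings, 20 differed in sign between them. In bulk tissue, fewer cells that make a collagen and less RNA per cell cannot be told apart.

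**Figure D2:**
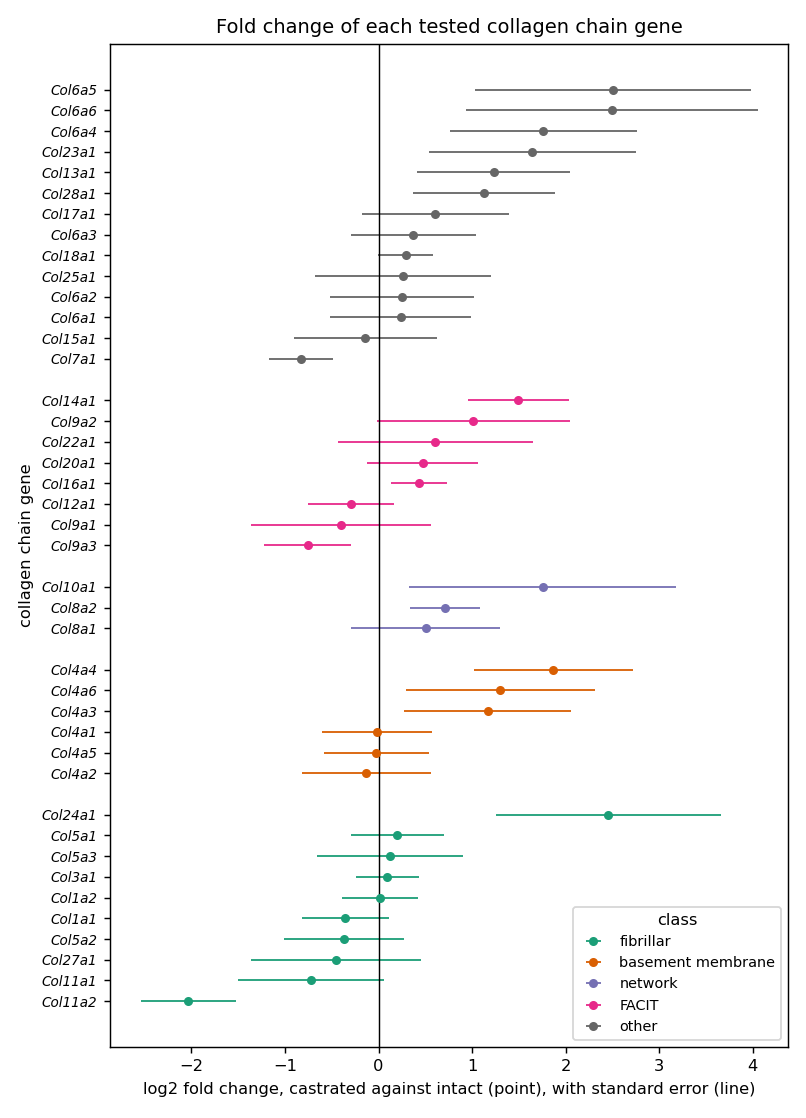
Log2 fold change of castrated against intact tissue (point) and its standard error, derived from the F statistic (line), for each of the 41 tested collagen chain genes, grouped by class, from 3 castrated and 2 intact samples. Points run from -2.04 for Col11a2 to 2.51 for Col6a5, and 28 of the 41 lie above 0.

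Among the fibrillar chains, 10 of 11 were tested, 5 higher and 5 lower in castrated tissue, with a median log2 fold change of -0.17, which turned to 0.76 without intact replicate 1 and was -0.81 without intact replicate 2. It also turned to 0.064 with limma voom and 0.11 with limma on log2(TPM + 1). Col2a1, the cartilage collagen, was at 0.317 CPM or below in every sample and was not tested. The 3 most abundant chains of the whole family were fibrillar. Col3a1, which forms thin fibrils of distensible tissue, was at 1245, 952 and 1068 CPM in castrated and at 1255 and 772.5 CPM in intact tissue, a log2 fold change of 0.09 (SE 0.34; edgeR adjusted p = 0.920). Col1a2, the second chain of type I collagen, was at 1026, 678 and 797 CPM against 1138 and 512 CPM, a log2 fold change of 0.013 (SE 0.41; edgeR adjusted p = 0.990). Col1a1, the main chain of type I collagen, was at 858, 474 and 617 CPM against 1202 and 464 CPM, a log2 fold change of -0.36 (SE 0.47; edgeR adjusted p = 0.745). For each of the 3 genes both extremes were the intact samples, so the castrated values lay entirely within the intact range. Col1a1 turned to a log2 fold change of 0.41 once intact replicate 1 was left out, and Col1a2 and Col3a1 turned to -0.45 and -0.20 once intact replicate 2 was.

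Col5a1 and Col5a2, chains of the type V collagen that sets the diameter of type I fibrils, had intact replicate 1 highest and intact replicate 2 lowest as well. Col5a1 was at 158, 96.4 and 105 CPM in castrated and at 159.9 and 49.5 CPM in intact tissue, with a log2 fold change of 0.20 (SE 0.49). Col5a2 was at 344, 148 and 167.5 CPM against 459 and 113 CPM, with a log2 fold change of -0.37 (SE 0.64). Here too the castrated samples lay between the intact ones. Col5a2 turned to a log2 fold change of 0.89 with intact replicate 1 left out, and Col5a1 turned to -0.42 with intact replicate 2 left out.

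Col11a2, a chain of the type XI collagen known from cartilage, was the fibrillar chain that separated the groups. Its level was 2.04, 1.27 and 1.85 CPM in castrated and 10.1 and 4.11 CPM in intact tissue. The groups did not overlap, with a log2 fold change of -2.04 (SE 0.51; edgeR adjusted p = 0.290, DESeq2 adjusted p = 0.0162). With intact replicate 1 left out it was -1.33. Its counts were low throughout, and Col11a1, its partner chain, shown for that reason, was at 17.0, 4.38 and 5.71 CPM against 23.7 and 6.26 CPM, with overlapping groups. The summed level of 6 cartilage and bone markers was 4.25, 5.54 and 9.08 CPM in castrated and 12.6 and 1.62 CPM in intact tissue. Without Chad, the most abundant, the other 5 summed to 3.46, 2.74 and 1.66 CPM against 11.3 and 1.09 CPM, and their part in the Col11a2 values was not tested. The remaining fibrillar chains were at 42.9 CPM or below in every sample. Col24a1, chosen after its values were seen, was at 1.68, 26.0 and 7.37 CPM against 2.78 and 1.49 CPM, so its log2 fold change of 2.46 (SE 1.20) came largely from castrated replicate 2, and it was 1.07 without that sample.

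The 250 bases before the start site of Col11a2, from RefSeq on GRCm38.p6 (the mm10 build of the files), are shown because it had the smallest p of all chains; they lie at chr17:34038888-34039137 on the plus strand, between the end of Rxrb and the first exon of Col11a2. Capitals mark the motifs searched on both strands, which were the box CCAAT, the GC box GGGCGG (which appears reversed and complemented when it lies on the other strand) and the TATA sequence TATAAA. In the windows shown no match overlapped another.
Col11a2: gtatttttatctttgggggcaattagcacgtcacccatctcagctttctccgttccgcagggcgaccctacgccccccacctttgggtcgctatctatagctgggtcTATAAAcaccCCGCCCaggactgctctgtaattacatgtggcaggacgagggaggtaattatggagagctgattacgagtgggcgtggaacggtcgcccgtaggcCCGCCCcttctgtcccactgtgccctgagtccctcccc
The window held GGGCGG at 2 places and TATAAA at 1 place, the latter beginning 143 bases before the start site. Over the 32851 RefSeq promoters of the same length, 32.7% held GGGCGG, 33.8% held CCAAT and 12.4% held TATAAA. Of the 44 chain genes, 35 had a promoter in the table, with 38 windows in all. GGGCGG stood in 57.9% of these windows, CCAAT in 34.2% and TATAAA in 13.2%. A match is a run of letters, not a bound site.

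The basement membrane chains fell into pairs with different sample patterns. All 6 were tested, 3 higher and 3 lower. Their median log2 fold change was 0.58, or 0.26 without castrated replicate 3 and 1.01 without intact replicate 1. The genes lie head to head in pairs in the genome: the start sites of Col4a1 and Col4a2 on chromosome 8 were 21 bases apart, those of Col4a3 and Col4a4 on chromosome 1 were 72 bases apart, and those of Col4a5 and Col4a6 on chromosome X were 1343 bases apart. The annotated ends of Col4a1 and Col4a2 overlapped by 22 bases.

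Col4a1 and Col4a2 form the common type IV collagen of all basement membranes. Col4a1 was at 692, 324 and 353 CPM in castrated and at 721 and 207 CPM in intact tissue, with a log2 fold change of -0.017 (SE 0.59). Col4a2 was at 453, 183 and 190.4 CPM against 495 and 113 CPM, with a log2 fold change of -0.13 (SE 0.69). Both were highest in intact replicate 1 and lowest in intact replicate 2, with castrated replicate 1 next to the highest. Without intact replicate 1 their log2 fold changes were 1.065 and 1.20, and without intact replicate 2 they were -0.66 and -0.85.

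The other pairs build type IV collagens of more restricted basement membranes and were highest in castrated replicate 3. Col4a4 was at 1.14, 3.85 and 6.83 CPM in castrated and at 1.07 and 1.05 CPM in intact tissue. The groups did not overlap, but castrated replicate 1 exceeded the intact samples by less than 0.1 CPM, and the log2 fold change of 1.87 (SE 0.85) had an edgeR adjusted p of 0.369. Col4a3, shown as its partner, had 0.892, 3.22 and 6.59 CPM against 1.345 and 1.75 CPM, with overlapping groups. Both genes had the order castrated replicate 3, castrated replicate 2, then the other 3 samples. Col4a6, a chain of epithelial and smooth muscle basement membranes, was at 3.07, 13.0 and 28.2 CPM against 3.015 and 8.53 CPM, with a log2 fold change of 1.30 (SE 1.01). Col4a5, its partner, was at 14.5, 20.4 and 48.0 CPM against 23.9 and 31.1 CPM, with a log2 fold change of -0.025 (SE 0.56). The groups overlapped for both. Without castrated replicate 3 the log2 fold change was 0.45 for Col4a6 and -0.68 for Col4a5, and without intact replicate 2 that of Col4a5 turned to 0.21. Basal epithelial markers, 6 genes led by Krt5, summed to 383, 359.8 and 889.9 CPM in castrated and 105 and 766 CPM in intact tissue, and smooth muscle markers to 441, 763 and 735 CPM against 263 and 156 CPM; their part in the levels of Col4a5 and Col4a6 was not tested.

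The short stretch between the start sites of Col4a3 and Col4a4 is shown, as are the separate windows before Col4a5 and Col4a6. The levels of Col4a3 and Col4a4 had a like order of samples, and the ratio of Col4a5 to Col4a6 varied more. Whether the sequences had a part in these levels was not tested. The 71 bases between the Col4a4 and Col4a3 start sites are chr1:82586850-82586920, written on the minus strand, from the Col4a3 to the Col4a4 start. The 250 bases before Col4a5 are chrX:141475169-141475418 on the plus strand and those before Col4a6 are chrX:141474077-141474326 on the minus strand, both intergenic. Capitals mark the same 3 motifs.
Col4a3 and Col4a4: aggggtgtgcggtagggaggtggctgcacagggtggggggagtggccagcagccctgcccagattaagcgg
Col4a5: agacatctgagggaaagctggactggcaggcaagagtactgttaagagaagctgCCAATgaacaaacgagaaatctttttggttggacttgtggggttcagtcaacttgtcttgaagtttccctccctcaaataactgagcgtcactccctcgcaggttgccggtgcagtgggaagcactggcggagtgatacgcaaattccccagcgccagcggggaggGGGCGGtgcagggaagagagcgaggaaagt
Col4a6: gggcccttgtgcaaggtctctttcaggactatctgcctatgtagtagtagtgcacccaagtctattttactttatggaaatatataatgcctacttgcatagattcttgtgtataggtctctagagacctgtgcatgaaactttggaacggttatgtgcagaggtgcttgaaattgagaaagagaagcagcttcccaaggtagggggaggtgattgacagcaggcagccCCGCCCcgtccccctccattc
The stretch shared by Col4a3 and Col4a4 held none of the 3 motifs, with 69.0% G or C. At 71 bases it is shorter than the 250-base windows, so its motif counts cannot be set beside theirs. The 250 bases before Col4a4, which include it, held none either. The Col4a5 window held 1 CCAAT and 1 GGGCGG, and the Col4a6 window held 1 GGGCGG.

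The 3 network-forming chains all had fold changes above 0, with a median of 0.71, and none was called. The median was 0.42 without castrated replicate 1 and 2.11 without intact replicate 1. Col8a2, a chain of the type VIII collagen of vessels and of Descemet's membrane, had the narrowest range of the 3: it was at 29.2, 33.0 and 29.7 CPM in castrated and at 12.4 and 24.0 CPM in intact tissue. The groups did not overlap, with a log2 fold change of 0.71 (SE 0.37; edgeR adjusted p = 0.418), which was 0.28 without intact replicate 1 and 1.31 without intact replicate 2. Col8a1, the other type VIII chain, was at 284, 95.3 and 111 CPM against 196.5 and 35.9 CPM, with overlapping groups, and its log2 fold change was 0.51 (SE 0.80), or -0.27 without intact replicate 2. Col10a1, known from hypertrophic cartilage, was at 112.5, 31.8 and 7.03 CPM against 28.1 and 2.23 CPM. Its highest sample, castrated replicate 1, exceeded its lowest, intact replicate 2, by 50.4-fold. The log2 fold change of 1.76 had an SE of 1.43. Without castrated replicate 1 it was 0.42, without intact replicate 1 it was 4.41 and without intact replicate 2 it was 0.84. Col10a1 lies within Nt5dc1, a gene of the opposite strand with a mean of 25.4 CPM. This overlap is of annotated gene spans, not of exons. The counting strand is not given in the sources used here, so whether any reads of these genes were mixed cannot be told.

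Of the FACIT chains, 8 of 9 were tested, 5 higher and 3 lower; their median log2 fold change was 0.45 and turned to -0.068 without intact replicate 2. Col14a1, a collagen that decorates the fibrils of tendon, skin and other mature stroma, was the chain with the smallest p among those higher in castrated tissue. It was at 77.9, 123 and 236 CPM in castrated and at 41.1 and 60.0 CPM in intact tissue. Every castrated sample was above both intact samples, and the log2 fold change of 1.495 (SE 0.54) had an edgeR adjusted p of 0.316. It stayed above 0 whichever sample was left out, from 0.97 without castrated replicate 3 to 1.83 without intact replicate 2, but it passed the unadjusted limits in only 1 of these 5 settings, without castrated replicate 1. The castrated samples had the same order for the summed fibroblast markers, described below, whose part in the Col14a1 values was not tested.

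Of the other tested FACITs, Col9a3 separated the groups, and the rest overlapped. Col12a1, which coats fibrils of stressed and wounded tissue, was at 369.6, 162 and 215 CPM against 421 and 188 CPM, with a log2 fold change of -0.29 (SE 0.46), or 0.33 without intact replicate 1. Col16a1 was at 66.8, 67.3 and 106 CPM against 70.9 and 46.6 CPM, with a log2 fold change of 0.44 (SE 0.30), or 0.19 without castrated replicate 3 and 0.18 without intact replicate 2. Thus Col12a1 followed the fibrillar chains, highest in intact replicate 1, whereas Col16a1 was highest in castrated replicate 3. Col9a2 was at 14.8, 3.22 and 2.93 CPM against 5.89 and 1.09 CPM, and Col20a1 at 1.68, 2.85 and 4.93 CPM against 2.09 and 2.36 CPM, both with overlapping groups. Col9a3, chosen after its values were seen, was at 1.46, 1.003 and 1.46 CPM against 2.13 and 2.23 CPM, which put every castrated sample below, with a log2 fold change of -0.76 (SE 0.46). Its span overlaps that of Tcfl5, on the opposite strand with a mean of 0.197 CPM, by 230 bases. Without the counting strand, whether any reads there were mixed cannot be told. Col9a1 and Col22a1 stayed at 2.53 CPM or below, and Col19a1, at 0.394 CPM or below, was not tested.

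Of the chains of other types, 14 of 15 were tested, 12 higher and 2 lower. Their median log2 fold change was 0.49, or 1.99 without intact replicate 1 and 0.24 without castrated replicate 3. The 3 classical chains of type VI collagen, Col6a1, Col6a2 and Col6a3, assemble into 1 molecule. Col6a1 was at 118, 175 and 263 CPM in castrated and at 277 and 44.1 CPM in intact tissue, Col6a2 at 94.7, 113 and 214 CPM against 208 and 32.95 CPM, and Col6a3 at 33.6, 65.5 and 76.4 CPM against 75.6 and 16.7 CPM. The 3 genes shared their order within the castrated group, lowest in castrated replicate 1, and all were lowest in intact replicate 2. Their log2 fold changes were 0.24 (SE 0.75), 0.25 (SE 0.77) and 0.37 (SE 0.67). Each passed the unadjusted limits without intact replicate 1, as did 17.8% of all genes in that setting, and without intact replicate 2 they were -0.58, -0.56 and -0.36.

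The later type VI chains Col6a5 and Col6a6, chosen after their values were seen, varied most among the chains of other types. Col6a5 was at 0.357, 10.98 and 15.03 CPM against 0.835 and 2.14 CPM, and Col6a6 at 0.0714, 5.22 and 3.71 CPM against 0.325 and 0.700 CPM. Castrated replicate 1 was the lowest of all samples for both, and the other castrated samples were the highest. Their log2 fold changes of 2.51 and 2.496 had SEs of 1.475 and 1.56.

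Among the basement membrane zone collagens, Col7a1, which builds the anchoring fibrils beneath stratified epithelia, was at 10.99, 11.9 and 19.6 CPM in castrated and at 26.2 and 23.5 CPM in intact tissue. All castrated samples were below the intact ones, and the log2 fold change of -0.83 (SE 0.34) had an edgeR adjusted p of 0.343. Col17a1, the hemidesmosomal collagen of basal epithelial cells, was at 55.2, 71.2 and 178 CPM against 25.6 and 102 CPM, with a log2 fold change of 0.61 (SE 0.79), or -0.077 without intact replicate 1. It was highest in castrated replicate 3 and intact replicate 2, the samples in which the basal epithelial markers were also highest; the part of those markers in its values was not tested. Col15a1, a multiplexin of vessel and muscle basement membranes, was at 201, 144 and 179 CPM against 348 and 43.7 CPM, with a log2 fold change of -0.14 (SE 0.76) that turned to 1.93 without intact replicate 1. Col18a1, whose C-terminal fragment is endostatin, was at 196, 113 and 143 CPM against 147 and 96.9 CPM, with a log2 fold change of 0.29 (SE 0.29), or 0.075 without castrated replicate 1 and 0.035 without intact replicate 2. For both the groups overlapped.

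Col23a1, a transmembrane collagen, had the widest range among the abundant chains of this class. It was at 432, 85.9 and 68.2 CPM in castrated and at 107 and 18.2 CPM in intact tissue. A single sample, castrated replicate 1, stood far above the others, and the log2 fold change of 1.65 had an SE of 1.11 and an edgeR adjusted p of 0.518. It was 0.34 without castrated replicate 1 and 3.34 without intact replicate 1. The remaining tested chains, Col6a4, Col13a1, Col25a1 and Col28a1, stayed at 8.65 CPM or below with overlapping groups, and Col26a1, at 1.575 CPM or below, was not tested. The plot of CPM of abundant chains sets these genes side by side.

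**Figure D3:**
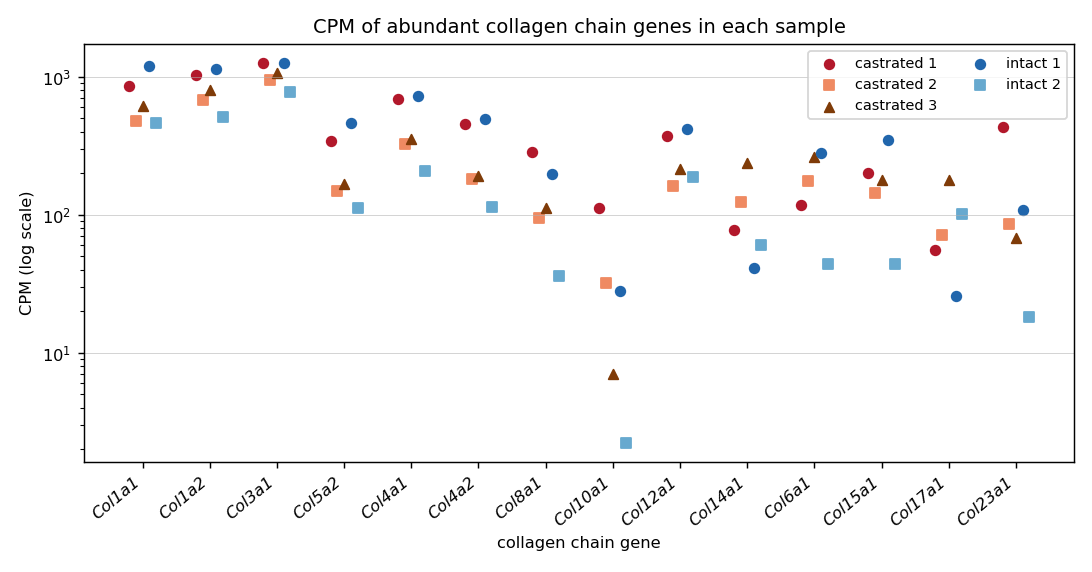
CPM (log scale) of 14 abundant collagen chain genes in each of the 5 samples, 3 castrated (red and brown) and 2 intact (blue). The intact samples enclose the castrated ones for Col1a1, Col1a2, Col3a1, Col5a2, Col4a1, Col4a2, Col6a1 and Col15a1, while for Col14a1 all castrated samples lie above both intact samples.

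To compare levels between chains, counts were divided by the deposited gene length and scaled to a fixed total per sample (TPM). On this scale all chains together made 2760, 1803 and 2143 TPM in castrated and 3083 and 1021 TPM in intact tissue. Col1a1, Col1a2 and Col3a1 supplied 47.4, 51.3 and 48.9% of this sum in castrated and 50.5 and 61.3% in intact tissue. The fibrillar class as a whole made 53.95, 57.3 and 53.97% against 58.6 and 66.35%, and the type IV class 14.9, 11.2 and 10.5% against 14.8 and 10.7%. The share of the fibrillar class was lower in every castrated than in either intact sample. As a share of all counts, the chains made 0.696, 0.430 and 0.533% in castrated and 0.758 and 0.304% in intact tissue, or 0.553 ± 0.134% (SD, n = 3) against 0.531 ± 0.321% (SD, n = 2). The difference of 0.0222 percentage points gave a 2-sided exact permutation p of 1.0, and the 10 assignments of samples allow no p below 0.1. Without intact replicate 1 the difference was 0.249 and without intact replicate 2 it was -0.205 percentage points.

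Ratios between chains were mostly taken between partners in a molecule, and in 1 case between Col3a1 and Col1a1, chains of different collagens. Of 10 ratios of TPM examined, with no test, 4 separated the groups, while 33.1% of all tested genes did so by their CPM. Col1a1 over Col1a2 was 0.735, 0.615 and 0.681 in castrated and 0.929 and 0.797 in intact tissue, lower in every castrated sample although the levels of both genes overlapped. Col5a1 over Col5a2 was 0.362, 0.514 and 0.492 against 0.274 and 0.345, higher in every castrated sample, but castrated replicate 1 and intact replicate 2 were close. The other 2 were ratios of scarce genes: Col4a3 over Col4a4 at 0.708, 0.758 and 0.874 against 1.14 and 1.51, and Col11a1 over Col11a2 at 7.13, 2.96 and 2.64 against 2.02 and 1.30. Col4a1 over Col4a2 was the same within 1.27-fold in all samples (1.49, 1.72 and 1.80 against 1.42 and 1.78), and Col6a1 over Col6a2 within 1.26-fold (1.89, 2.35 and 1.87 against 2.02 and 2.03). Col4a5 over Col4a6 ran from 1.61 in castrated replicate 2 to 8.14 in intact replicate 1, and Col8a1 over Col8a2 from 1.27 in intact replicate 2 to 13.4 in intact replicate 1. The ratio of the type VIII chains thus varied most of the 10.

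**Figure D4:**
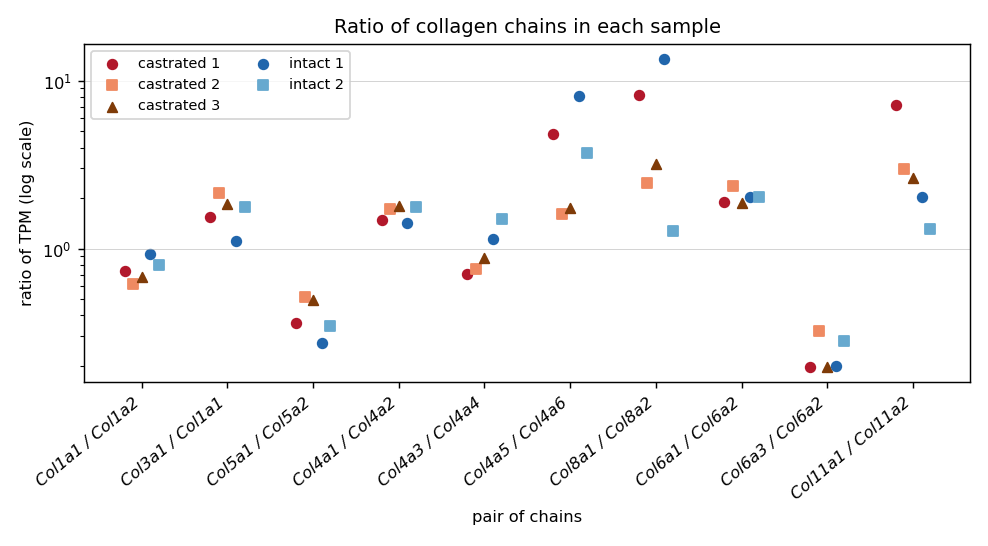
Ratio of TPM of paired collagen chains (log scale) in each of 3 castrated (red and brown) and 2 intact (blue) samples. Col4a1 over Col4a2 and Col6a1 over Col6a2 vary by 1.27-fold and 1.26-fold over the samples, and Col8a1 over Col8a2 by 10.6-fold.

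Genes that make, trim, cross-link, bind or degrade collagen were examined as a list of 49, of which 47 were tested. They were higher in 30 and lower in 17, with a median log2 fold change of 0.22 that turned to -0.24 without intact replicate 2 and was 1.12 without intact replicate 1, and 0 had an adjusted p under 0.05 by edgeR's quasi-likelihood test. With p unadjusted and the same limits, 5 were higher and 1 lower, beside 7.66% and 3.26% of all genes, and 10 of 47 (21.3%) lay above in every castrated sample and 2 (4.26%) below, beside 17.8% and 15.3% of all genes. DESeq2 called 4 of the 47 (8.51%, beside 6.77% of all genes) at adjusted p under 0.05, which were P3h2, Pcolce2, Loxl4 and Ctsk.

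The chaperones and hydroxylases of the secretory pathway had 14 of 19 genes higher, with a median of 0.20. This balance turned without intact replicate 2, where only P4ha1, P3h2, P3h3, Crtap, Colgalt1 and Colgalt2 had log2 fold changes above 0. Serpinh1, the collagen chaperone HSP47, was at 232, 133 and 205 CPM in castrated and at 205 and 81.1 CPM in intact tissue, lowest in intact replicate 2. P4hb, the beta subunit of prolyl 4-hydroxylase, was at 1159, 864 and 1052 CPM against 1418 and 1117 CPM, and Ppib, a prolyl isomerase, at 386, 286.5 and 330 CPM against 402 and 354 CPM. P3h2, a prolyl 3-hydroxylase that acts on type IV collagen, was at 13.2, 15.8 and 16.5 CPM against 7.84 and 3.94 CPM, apart in every sample, with a log2 fold change of 1.36 (SE 0.38; edgeR adjusted p = 0.290).

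Of 7 tested propeptide proteinases and their enhancers, 5 were higher. This balance turned without intact replicate 2, where only Pcolce and Pcolce2 had log2 fold changes above 0. Bmp1, the C-proteinase, was at 138, 77.4 and 108 CPM against 175 and 49.1 CPM, Adamts2, the N-proteinase, at 72.3, 42.1 and 56.8 CPM against 86.7 and 20.9 CPM, and Pcolce, the enhancer of Bmp1, at 67.2, 72.6 and 105 CPM against 67.6 and 30.02 CPM. All 3 overlapped between groups. Pcolce2 was at 4.21, 10.2 and 21.3 CPM against 2.13 and 0.394 CPM, with a log2 fold change of 3.255 (SE 1.04; edgeR adjusted p = 0.301).

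The cross-linking lysyl oxidases were higher in 1 of 5 and lower in 4. This balance turned without intact replicate 1. The log2 fold changes were then 0.66 for Lox, 1.56 for Loxl1, 0.97 for Loxl2, 1.42 for Loxl3 and -3.095 for Loxl4. Lox was at 245, 155 and 144 CPM against 272 and 109 CPM and Loxl2 at 74.1, 31.6 and 32.01 CPM against 126 and 22.1 CPM, both again with the castrated samples inside the intact range. Loxl1, better known for elastin, was at 80.2, 59.3 and 66.0 CPM against 57.9 and 22.0 CPM, all castrated samples above. Loxl4 was at 7.39, 3.01 and 4.64 CPM against 9.69 and 40.7 CPM, all castrated samples below, with a log2 fold change of -2.40 (SE 0.72; edgeR adjusted p = 0.297), which was -0.95 without intact replicate 2.

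Receptors were higher in 6 of 9 tested genes. Ddr2, the collagen receptor kinase of mesenchymal cells, was at 63.8, 104 and 162 CPM in castrated and at 53.4 and 34.5 CPM in intact tissue, with a log2 fold change of 1.31 (SE 0.45; edgeR adjusted p = 0.309). Ddr1, its epithelial relative, was at 185, 93.5 and 121 CPM against 189 and 155 CPM, and Itgb1, the shared beta subunit of the collagen-binding integrins, at 1042, 999 and 801 CPM against 1423 and 514 CPM. Only Ddr2 of these 3 separated the groups.

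Of 7 collagenolytic proteases 4 were higher. Ctsk, the collagen-degrading cathepsin of osteoclasts and macrophages, was at 53.9, 629 and 352 CPM against 50.1 and 27.1 CPM, with a log2 fold change of 3.17 (SE 1.07; edgeR adjusted p = 0.309). Mmp9, a gelatinase, was at 41.2, 133 and 34.9 CPM against 19.99 and 17.15 CPM, with a log2 fold change of 1.90 (SE 0.69; edgeR adjusted p = 0.316), or 1.01 without castrated replicate 2. Both were highest in castrated replicate 2, where the 10 macrophage markers also had their highest sum, 2981 CPM, against 1156 and 1543 CPM in the other castrated and 705 and 666 CPM in the intact samples. The adipocyte markers, at 283, 2445 and 1641 CPM against 170.4 and 311 CPM, were also highest there, and the part of either list was not tested. Mmp2, a gelatinase of stromal cells, was at 380.5, 248 and 287 CPM against 303 and 126 CPM, and Mmp14, the membrane-bound collagenase, at 688, 537 and 389 CPM against 1037 and 154 CPM. Neither separated the groups.

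Markers of the stromal cells that make collagen separated the groups where most chains did not. The 10 fibroblast markers, none of them a collagen, summed to 2331, 4040 and 6024 CPM in castrated and 1142 and 905 CPM in intact tissue. All 10 were measured above 0 in every sample, 8 were above in every castrated sample (17.8% of all genes were), and 8 passed the unadjusted limits (7.66% of all genes did, in this direction). Dcn, a proteoglycan that binds type I collagen fibrils and the most abundant of them, was at 1021, 2619 and 3831 CPM against 504 and 466 CPM. The markers that overlapped were Pdgfrb, at 85.6, 62.3 and 69.3 CPM against 87.8 and 22.0 CPM, and Mfap5. Mfap5 was at 106, 47.3 and 80.4 CPM against 116 and 33.4 CPM. For both, the castrated samples lay inside the intact range. Of 10 smooth muscle markers, 9 lay above in every castrated sample, with sums of 441, 763 and 735 CPM against 263 and 156 CPM, led by Acta2 at 165, 298 and 221 CPM against 79.8 and 54.2 CPM. The 10 endothelial markers summed to 501, 328 and 398 CPM against 532 and 216 CPM, but Cdh5 alone gave 235 CPM of the sum in intact replicate 1. The other 9 summed to 424, 247 and 336 CPM against 297 and 177 CPM, 7 of the 10 had a log2 fold change above 0, with a median of 0.44, and Kdr and Tek lay above in every castrated sample. The 10 epithelial markers summed to 4581, 4150.0 and 4846 CPM against 6845 and 3938 CPM. The castrated samples were thus not ranked alike by the summed chains and by the summed fibroblast markers: castrated replicate 1 was the highest of its group for summed collagen and the lowest for summed fibroblast markers. Without Dcn the other 9 fibroblast markers summed to 1310, 1421 and 2193 CPM against 638 and 439 CPM. Castrated replicates 1 and 2 were then close. Among the castrated samples Pdgfrb, Thy1, Mfap5 and Pi16 were highest in castrated replicate 1, and the other fibroblast markers in castrated replicate 3. Whether the markers had a part in any chain's values was not tested.

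**Figure D5:**
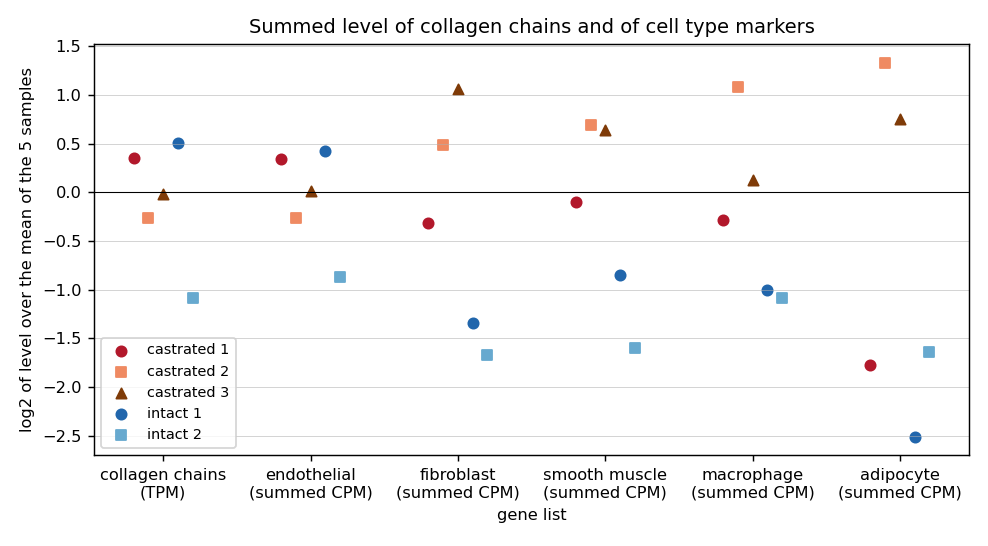
Summed level of all collagen chains (TPM) and of 5 cell type marker lists (CPM) in each of 5 samples, as log2 of the level over the mean of the samples. The collagen sum places the castrated samples between the intact ones (1803 to 2760 TPM, between 1021 and 3083 TPM), as does the endothelial sum through its gene Cdh5, while fibroblast, smooth muscle and macrophage sums place all castrated samples above both intact samples.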

How the data were processed

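RNA of 3 castrated and 2 intact prostate samples of TripleTg mice was sequenced as paired-end reads, which the authors trimmed with Trimmomatic 0.39, aligned to mm10 with STAR 2.7.9 and counted with HTSeq 2.0.2, per the labels and the study's methods. The deposited table holds whole-number counts per gene with coordinates and a gene length; the counting strand is not given in the sources used here. Total counts were 18951782 to 28015507 per sample, and no column of sample values was left out (0). Counts were tested with edgeR 4.0.16 (R 4.3.3; TMM scaling, glmQLFit without the legacy option, quasi-likelihood F-test, no covariate) on all 14612 genes above 1 CPM in at least 2 samples, with Benjamini-Hochberg adjustment and calls at adjusted p under 0.05 and absolute log2 fold change above 1. CPM used the plain total; TPM used the deposited length. Alternatives were DESeq2 1.42.0, limma 3.58.1 (voom, and log2(TPM + 1)), edgeR's likelihood ratio test, other scalings and filters, a replicate block, and leaving out each sample. The procedure was tested on simulated data. Genes named with values are the 5 members per class (8 of the other types) of highest mean TPM, the 3 per role of the processing list of highest mean CPM, and any past both limits with p unadjusted; further ones are marked as partners or as chosen later. The members and lists were chosen with earlier results of these data known. Same-numbered castrated and intact samples carry different codes and shared only a number.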

Additional observations from a re-analysis of the deposited data

How the results depend on the processing

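The comparison had 3 castrated and 2 intact samples and a common dispersion of 0.238. Of 736 values of the 46 named genes under the alternatives, 667 kept their direction and their side of the threshold, 64 reversed, in 24 genes, and 5 passed the threshold where the reported test did not. The causes of these changes were not tested. The older quasi-likelihood fit of edgeR and the CPM of TMM-scaled libraries were alternatives chosen after seeing the data, and neither changed a count by more than 1.5 times.

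DESeq2 called 989 genes at adjusted p, 1 of them a chain, and edgeR's likelihood ratio test called 369; each put 4 chains past the unadjusted threshold, beside 14.2% and 13.4% of all genes. With library size as the only scaling the log2 fold change of Col4a5 was 0.013. With limma voom the fibrillar median was 0.064, and the log2 fold changes that reversed were 0.11 for Col4a1, 0.030 for Col4a2, 0.46 for Col15a1, 0.15 for Bmp1, 0.00087 for Lox, 0.12 for Itgb1 and 0.37 for Mmp14. With log2(TPM + 1) in limma they were 0.11 for the fibrillar median, 0.26 for Col4a1, 0.18 for Col4a2, 0.57 for Col15a1, 0.27 for Bmp1, 0.14 for Lox, 0.25 for Itgb1 and 0.50 for Mmp14, where the median of all genes was 0.12.

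With the replicate number as a block, 975 genes passed the unadjusted threshold and 0 the adjusted one, and 3 chains passed the former (Col11a2, Col10a1 and Col23a1). The fibrillar median was then 0.034 and the basement membrane median 0.26, and the log2 fold changes that reversed were 0.27 for Col4a1, 0.26 for Col4a2, -0.044 for Col20a1, 0.44 for Col15a1, 0.13 for Bmp1, 0.16 for Lox, 0.23 for Itgb1 and 0.58 for Mmp14. As a check of pairing, samples with number 1 deviated from their groups with a correlation of 0.149 across genes and those with number 2 with one of -0.045, and the samples shared only a number.

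Leaving out each sample in turn moved the genes past the adjusted threshold from 0 to 1, those past the unadjusted one from 867 without castrated replicate 3 (893 without castrated replicate 2) to 2570 without intact replicate 1, the chains past it from 1 (beside 6.22% of all genes) to 8 (beside 17.8%), and the chains whose groups did not overlap from 7 of 39 (17.9%, beside 39.3% of all genes) without castrated replicate 2 to 30 of 40 (75.0%, beside 71.5%) without intact replicate 1. The lowest and highest medians of log2 fold changes were -0.27 and 1.20 for all chains, -0.81 and 0.76 for fibrillar, 0.26 (without castrated replicate 3) and 1.01 for basement membrane, 0.42 and 2.11 for network, -0.068 and 0.71 for FACIT and 0.24 and 1.99 for other chains, and -0.24 and 1.12 for the processing list. The collagen share of counts differed by -0.205 to 0.249 percentage points. Single genes, again from the lowest to the highest log2 fold change, ran from -0.89 to 0.41 for Col1a1, -0.45 to 0.63 for Col1a2, -0.20 to 0.42 for Col3a1, -0.42 to 1.20 for Col5a1, -1.07 to 0.89 for Col5a2, -0.66 to 1.065 for Col4a1, -0.85 to 1.20 for Col4a2, -0.68 to 0.29 for Col4a5, -0.27 to 2.11 for Col8a1, -0.15 to 2.59 for Col9a2, -0.76 to 0.33 for Col12a1, -0.58 to 2.004 for Col6a1, -0.56 to 2.02 for Col6a2, -0.36 to 1.75 for Col6a3, -0.995 to 1.93 for Col15a1 and -0.077 to 1.99 for Col17a1. In the processing list they ran from -0.11 to 1.15 for Serpinh1, -0.70 to 1.06 for Bmp1, -0.61 to 1.38 for Adamts2, -0.59 to 0.66 for Lox, -1.46 to 0.97 for Loxl2, -0.58 to 0.81 for Itgb1 and -0.95 to 1.74 for Mmp14. In all but 3 of these 23 genes, Col4a5, Col9a2 and Col17a1, the lowest value came without intact replicate 2 and the highest without intact replicate 1. An intact group of 1 sample was assumed to vary like the castrated group.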

Other observations

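Genes outside the family that carry a collagen-like domain of Gly-X-Y repeats had higher values in castrated tissue in most cases. Of 33 such genes in the table, a list drawn up after the data had been seen and so given with no test, 26 passed the filter, 19 were higher and 7 lower in castrated tissue, and the median log2 fold change was 1.40. In 15 of the 26 (57.7%) every castrated sample was above both intact samples, and in 0 was every castrated sample below, beside 17.8% and 15.3% of all genes. The subunits of complement C1q, which macrophages make, were among them: C1qa was at 219, 404 and 195 CPM in castrated and at 115 and 129 CPM in intact tissue. C1qa, C1qb and C1qc also belong to the macrophage marker list. The macrophage scavenger receptor Msr1 was at 60.6, 309 and 113 CPM against 31.9 and 43.6 CPM, and the receptor Marco at 59.8, 20.7 and 2.98 CPM against 0.464 and 0 CPM. Adipoq, the adipocyte hormone adiponectin, was at 0.535, 67.7 and 68.4 CPM against 0 and 0.0875 CPM, so castrated replicate 1 was close to the intact samples. The matrix genes Cthrc1 and Emid1 had another order: Cthrc1 was at 19.7, 4.38 and 3.66 CPM against 40.3 and 2.76 CPM, and Emid1 at 155.0, 11.5 and 5.22 CPM against 148 and 5.82 CPM, high in castrated replicate 1 and intact replicate 1 alone, as were Col5a2, Col4a1 and Col4a2.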
